A study of Mus musculus with 816 samples.

Results

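The proteasome is the barrel-shaped protease that degrades proteins tagged with ubiquitin. Its 20S core is built from rings of alpha subunits (Psma genes) that gate the chamber and rings of beta subunits (Psmb genes), of which Psmb5, Psmb6 and Psmb7 encode the constitutive catalytic subunits. The 19S cap holds a ring of ATPases (Psmc genes) that unfold substrates and non-ATPase subunits (most Psmd genes) that bind and remove ubiquitin. The PA28 activator, encoded by Psme1 and Psme2, binds the 20S core in place of the 19S cap, and it is known as an interferon-induced partner of the immunoproteasome, in which Psmb8, Psmb9 and Psmb10 replace the constitutive catalytic subunits. Microglia, the resident macrophages of the brain, use proteasomes in protein turnover and in making peptides for presentation on MHC class I.

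The genes described here are those whose symbol starts with Psma, Psmb, Psmc, Psmd, Psme or Psmg followed by a number, without the 3 immunoproteasome genes and without pseudogenes. The rule found 46 genes among the 45581 listed for cultures and the 29858 listed for mice, and the same 46 in both. Of these, 31 encode the constitutive core described in most of the text: 7 alpha subunits, 7 beta subunits, 6 ATPases and 11 non-ATPase subunits. The other 15 are 4 activators (Psme1 to Psme4), 3 chaperones of 19S assembly (Psmd5, Psmd9, Psmd10), 4 of 20S assembly (Psmg1 to Psmg4) and 4 further symbols (Psma8, Psmb11, Psmc3ip and Psme2b). The question addressed was how the genes of the constitutive proteasome behaved when microglia met interferons or Toll-like receptor ligands, with Psme1 and Psme2 set apart from the core.

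The cultures were commercial primary microglia of neonatal mice, grown in 96-well plates and stimulated for 4, 24 or 72 h. Their RNA was measured by 3′-end sequencing in 98 groups of stimulus and time. Untreated cultures served as controls at 24 h (n = 40, 6 plates) and 72 h (n = 25, 4 plates). Since no untreated culture is labelled 4 h, cultures of 4 h were compared with those untreated for 24 h. Time and stimulus cannot be told apart in that comparison, and cultures given chemokines for 4 h served as a second control for LPS_hi. The main stimuli at 24 h were the type I interferons IFNa (0.0008 ug/ul, n = 8) and IFNb (0.0001 ug/ul, n = 10), the type II interferon IFNg (0.0001 ug/ul, n = 9), IC (polyIC, a mimic of viral double-stranded RNA, 0.2 ug/ul, n = 8), P3C (a synthetic bacterial lipopeptide, 0.001 ug/ul, n = 6) and lipopolysaccharide (LPS) at 0.0001 ug/ul (LPS_hi, n = 18) or 0.00001 ug/ul (LPS_lo, n = 7). LPS_hi was also given for 4 h (n = 7) and 72 h (n = 13), and IFNg for 72 h (n = 6). In mice, microglia were isolated with CD11b beads, which also bind other myeloid cells. For the LPS experiment they came from female C57BL/6 mice, 2 months old by the methods, 4 h after an injection of LPS (2 mg/kg, n = 4) or PBS (n = 4). For the comparison of ages they came from untreated male C57BL/6 mice of 22 months (n = 13) and 2 months (n = 11). The cultures came from 3 cell lots, and nothing in the labels says that cultures of a group came from separate animals. Their p-values therefore measure the spread between cultures, which may be technical, and not that between animals or lots. Cell lot was not fitted as a term, and the lots behind each stimulus are not reported here.

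Levels are in CPM, that is, a gene's reads scaled to a library of 1000000 mapped reads. Depth was 1.00 to 38.2 M mapped reads per culture and 2.36 to 7.78 M per mouse (M for 1000000). Differences between groups are given on the log2(CPM + 1) scale with their standard error, which understates the change of low genes, and a gene was called higher or lower at an adjusted p under 0.05 in limma across all genes tested. Shares of all genes are shares called at that adjusted p. Counts of core subunits at an unadjusted p have no such share beside them and are not read as results about the core. All 8 microglial marker genes checked (among them Csf1r and P2ry12) were found in each main group, with a median summed level of 1473 to 5816 CPM in cultures and 51460 to 59536 CPM in mice. In cultures the defining markers of neutrophils, monocytes, T cells and B cells had a median sum of at most 1.73 CPM, and a sum of up to 60.5 CPM in single cultures (neutrophil markers, LPS_hi for 24 h). The median sum of the microglial markers was lower with each main stimulus than in untreated cultures. At 24 h it was 5816 CPM untreated, 3695 with IFNa, 3322 with IFNb, 2993 with IFNg, 2898 with IC, 3218 with P3C, 1473 with LPS_hi and 1571 with LPS_lo. It was 2753 CPM with LPS_hi at 4 h and, at 72 h, 3775 untreated, 1874 with LPS_hi and 3294 with IFNg, and its part in the results below was not tested.

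Promoters of the genes that the results turn on are shown first, since interferon and proteasome stress are known to act through short promoter motifs. RefSeq promoters of GRCm38.p6, 250 bases before to 50 after a gene's start, matched 38 of the 46 genes and 25 of the 31 core genes. In capitals are matches on either strand to 5 motifs: the interferon-stimulated ISRE core GAAANNGAA, the interferon gamma-activated site (GAS) TTCNNNGAA, the antioxidant response element (ARE) core TGACNNNGC, the NF-Y box CCAAT and the ETS motif CCGGAAG. Each motif was searched on its own, so that a base may belong to matches of more than 1 motif.

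Psme1 (the PA28 alpha subunit), chr14:55578244-55578543, plus strand: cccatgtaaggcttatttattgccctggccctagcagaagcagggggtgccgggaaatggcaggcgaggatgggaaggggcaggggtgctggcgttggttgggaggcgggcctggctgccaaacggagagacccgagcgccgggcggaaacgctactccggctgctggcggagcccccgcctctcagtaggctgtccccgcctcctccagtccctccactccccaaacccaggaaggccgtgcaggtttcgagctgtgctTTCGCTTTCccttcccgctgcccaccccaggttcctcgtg
Psme2 (the PA28 beta subunit), chr14:55591052-55591351, minus strand: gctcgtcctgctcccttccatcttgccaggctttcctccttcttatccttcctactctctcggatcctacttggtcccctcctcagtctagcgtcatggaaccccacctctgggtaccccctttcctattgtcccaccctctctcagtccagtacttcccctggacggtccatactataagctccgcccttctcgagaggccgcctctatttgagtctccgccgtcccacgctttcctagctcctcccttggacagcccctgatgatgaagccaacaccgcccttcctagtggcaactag
Psma5 (a 20S alpha subunit, the core gene with the largest rise after IFNg), chr3:108256676-108256975, plus strand: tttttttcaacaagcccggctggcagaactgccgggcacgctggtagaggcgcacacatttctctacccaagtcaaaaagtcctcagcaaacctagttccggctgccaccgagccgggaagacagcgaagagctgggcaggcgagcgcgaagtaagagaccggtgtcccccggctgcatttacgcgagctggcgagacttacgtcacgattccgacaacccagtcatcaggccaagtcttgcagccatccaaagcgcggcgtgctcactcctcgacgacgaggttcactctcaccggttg
Psmb5 (the chymotrypsin-like catalytic subunit, the core gene with the largest rise after P3C), chr14:54617946-54618245, minus strand: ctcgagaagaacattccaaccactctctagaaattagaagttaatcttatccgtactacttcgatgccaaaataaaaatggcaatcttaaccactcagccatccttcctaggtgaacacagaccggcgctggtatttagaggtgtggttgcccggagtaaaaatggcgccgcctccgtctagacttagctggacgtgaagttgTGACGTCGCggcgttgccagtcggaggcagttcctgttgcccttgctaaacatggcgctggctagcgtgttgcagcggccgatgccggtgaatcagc
Psmc1 (a 19S ATPase that rose with P3C and LPS), chr12:100109952-100110251, plus strand: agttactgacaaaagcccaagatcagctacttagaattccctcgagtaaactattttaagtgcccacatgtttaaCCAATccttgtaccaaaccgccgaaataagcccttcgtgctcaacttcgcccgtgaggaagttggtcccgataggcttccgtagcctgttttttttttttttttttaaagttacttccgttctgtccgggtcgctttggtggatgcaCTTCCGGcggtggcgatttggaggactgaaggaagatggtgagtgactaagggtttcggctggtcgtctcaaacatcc

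The Psme1 window held 1 ISRE core match, which began 10 bases after the RefSeq start. In GENCODE, Psme1 starts at chr14:55578123, before the first base of that window (55578244). By that annotation the window lies inside the gene, and the bases before the GENCODE start were not searched. Neither of the overlapping Psme2 windows held any of the 5 motifs. The Psmb5 window held an ARE core match that began 47 bases before the start. The Psmc1 window held an ETS match 28 bases before its start and an NF-Y box further upstream. The Psma5 window held none of the 5. Over the 27 promoters of core genes, the ETS motif was in 11 (40.74%), beside 8.86% of all 32851 promoters. Shares for the other motifs were 10 of 27 for the NF-Y box (37.04% beside 37.41%), 4 for the ARE core (14.81% beside 12.39%; Psmb5, Psmb6, Psmc6 and Psmd12), 4 for the ISRE core (14.81% beside 8.56%) and 1 for GAS (3.7% beside 8.3%). These are matches of letters only, and no binding was measured.

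All 46 genes passed the filter in cultures. The PA28 genes rose with interferons, IC and LPS, and core subunits rose in sets that differed between stimuli, as the map of differences shows. In bulk samples like these, fewer cells of a type and less RNA per cell cannot be told apart.

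**Figure D1:**
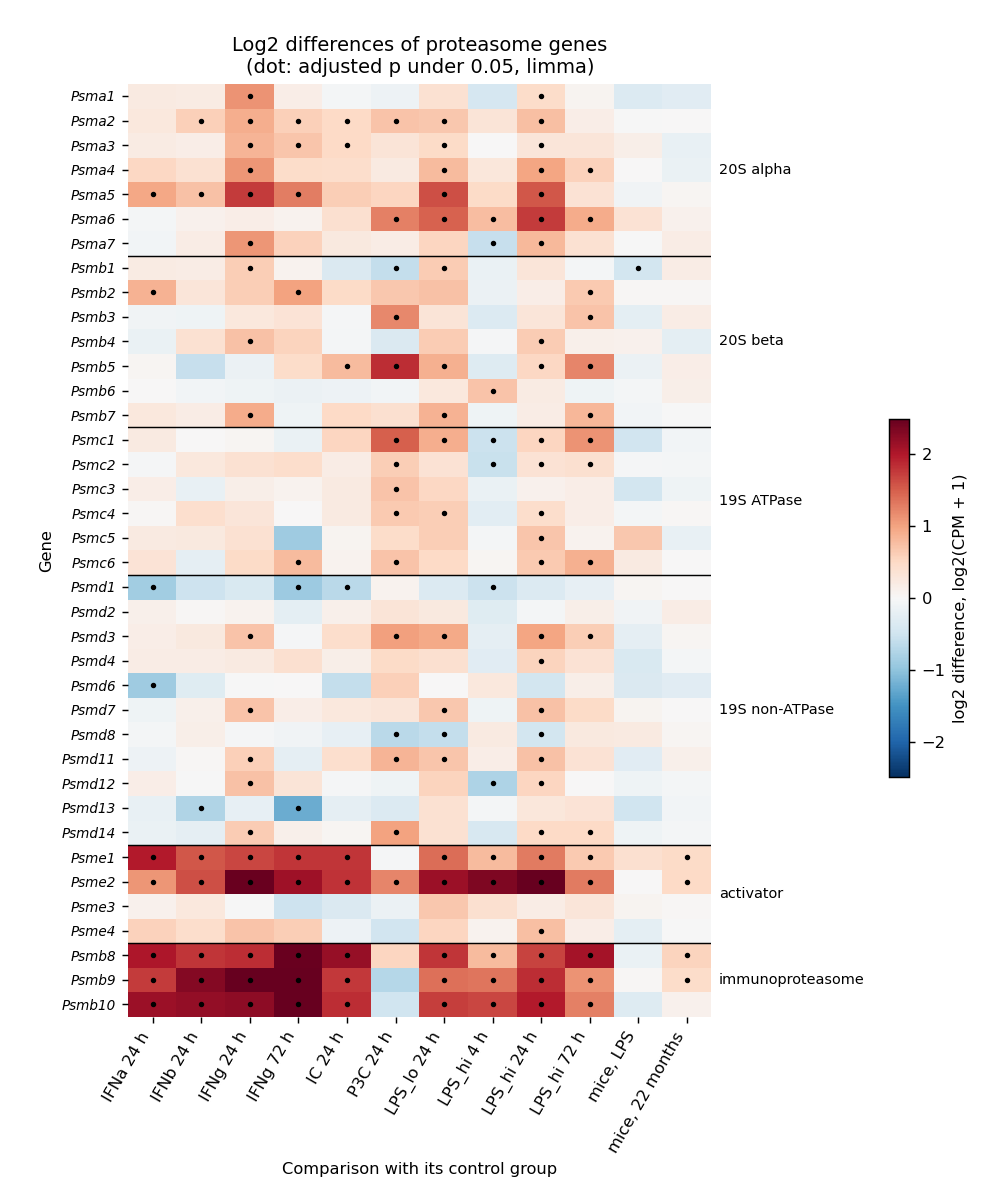
Colour gives the log2 difference, on the log2(CPM + 1) scale, of each proteasome gene (rows) in each main comparison with its control group (columns), and a dot marks an adjusted p under 0.05 in limma. Psme1 and Psme2 carry dots in the interferon, IC and LPS columns of the cultures and in the aging column, but not in that of mice given LPS. In the LPS_hi column at 24 h Psme1, at 1.30, lies below Psma6 and Psma5, at 1.76 and 1.54, and the P3C column has a raised Psmb5, at 1.84, beside -0.026 for Psme1.

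Psme1 (chr14:55578123-55581529, GRCm38) lay at 260.6 ± 76.04 CPM (SD) in untreated cultures, with a lowest, median and highest value of 148.2, 248.7 and 558.3. With IFNa for 24 h the same 3 values were 694.1, 952 and 1622 CPM, so that each of the 8 cultures lay above every untreated culture. The rise was 1.98 ± 0.19 (adjusted p = 2.99e-22). IFNb gave 517.5, 771.1 and 1051 CPM, a rise of 1.55 ± 0.17, and IFNg gave 545.01, 719.1 and 1372 CPM, a rise of 1.67 ± 0.18 (adjusted p = 9.26e-17 and 7.11e-18). Both groups reached just into the untreated range. With IC the values were 268.3, 955 and 1249.9 CPM and the rise 1.78 ± 0.19 (adjusted p = 2.66e-18), and the lowest of the 8 cultures stood apart from the rest, which lay at 794.3 CPM or more. Without it the rise was 2.03. LPS_hi gave 357.5, 651.8 and 954 CPM (1.30 ± 0.14, adjusted p = 7.62e-19) and LPS_lo 542.4, 646.1 and 868 CPM (1.39 ± 0.20, adjusted p = 1.51e-10). The 6 cultures with P3C lay at 187.3, 253.4 and 292.7 CPM, inside the untreated range, with a difference of -0.026 ± 0.21 (adjusted p = 0.965) that lay below 0 in both plates.

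Psme2 (chr14:55587441-55591113, minus strand) was low in untreated cultures, at 25.8 ± 12.3 CPM (lowest, median and highest 2.71, 22.3 and 61.9). IFNg raised it to 69.1, 146.5 and 197.6 CPM, clear of the untreated cultures, a rise of 2.47 ± 0.26 (adjusted p = 1.36e-18). With LPS_hi the values were 37.3, 164.8 and 226.7 CPM and the rise 2.48 ± 0.20 (adjusted p = 4.19e-31). With the type I interferons the rises were 1.10 ± 0.27 with IFNa (24.6, 54.2 and 96.8 CPM, adjusted p = 0.000838) and 1.61 ± 0.24 with IFNb (40.6, 79.6 and 101.5 CPM, adjusted p = 5.29e-09), and both groups overlapped with untreated cultures. IC raised Psme2 by 1.81 ± 0.27 and LPS_lo by 2.14 ± 0.28 (adjusted p = 2.18e-09 and 7.88e-12). Unlike Psme1, Psme2 was also called higher with P3C, at 1.21 ± 0.30 (adjusted p = 0.000749). There the 3 cultures of one plate had 21.5, 43.6 and 22.7 CPM and those of the other 89.8, 131.1 and 105.3 CPM, and the difference from the untreated cultures of the same plate was 0.767 and 2.366.

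Within plates, the 2 genes kept the direction of the pooled values in the interferon and 24 h LPS comparisons. For IFNg the within-plate differences of Psme1 were 1.779 to 2.034 and those of Psme2 2.179 to 2.586 (3 plates), and for LPS_hi 0.689 to 2.020 and 1.183 to 2.757 (6 plates). Type I and type II interferon were compared in the same fit, which had no plate term. IFNg and IFNa shared no plate, so plate and interferon cannot be told apart in that contrast. Within plates Psme2 differed from untreated by 0.924 to 1.094 with IFNa and by 1.572 to 1.936 with IFNb. The rise of Psme2 was larger with IFNg than with IFNa by 1.36 ± 0.34 (adjusted p = 0.0019), and its difference from IFNb was 0.85 ± 0.32 (adjusted p = 0.11). For Psme1 the differences were -0.31 ± 0.23 and 0.12 ± 0.22 (adjusted p = 0.505 and 0.973), and neither passed the test. Psme2b (chr11:48945354-48946190), a near copy of Psme2, may share reads with it, so that the split between the 2 is uncertain. It was called higher in the 9 culture comparisons in which Psme1 was, by 1.02 to 2.33, and stood at -0.22 ± 0.41 with P3C (adjusted p = 0.786). The sum of Psme2 and Psme2b was still called higher in each of the 10 culture comparisons.

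**Figure D2:**
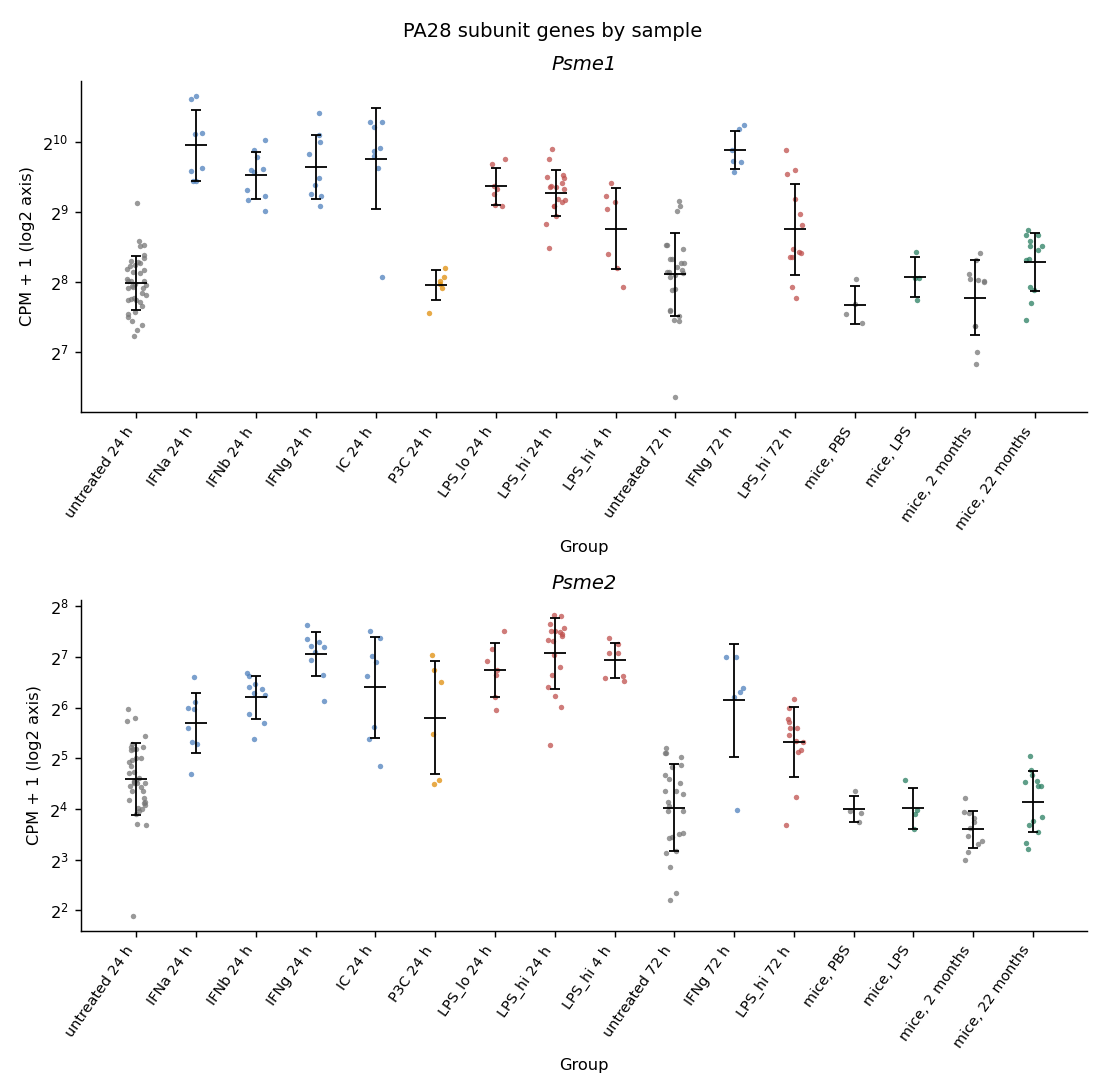
Each point is the level of Psme1 or Psme2 in a culture or mouse (CPM + 1, log2 axis), by group, and bars give the mean and SD on the log2 scale. Grey points are controls, blue interferons and IC, orange P3C, red LPS and green LPS-injected or older mice. The IFNa cultures lie between 694.1 and 1622 CPM of Psme1, above every untreated culture, and the P3C cultures between 187.3 and 292.7.

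Of the 31 core subunits, IFNg raised 14 and each type I interferon 2. IFNa raised 2 (Psma5, Psmb2) and lowered 2 (Psmd1, Psmd6), while 4.62% and 10.3% of all genes tested were called higher and lower. IFNb raised 2 (Psma2, Psma5) and lowered 1 (Psmd13), beside 4.88% and 5.88% of genes. The 14 higher and 0 lower with IFNg stood beside 6.16% and 5.16%. At an unadjusted p under 0.05 in limma, the core counts with IFNg were 17 and 0. IC raised 3 (Psmb5, Psma3, Psma2) and lowered 1 (Psmd1), beside 3.88% and 8.75%. P3C raised 12 and lowered 2 (4.39% and 19.1%), LPS_hi for 24 h raised 20 and lowered 1 (8.97% and 21%) and LPS_lo raised 13 and lowered 1 (5.38% and 13.2%). Median differences over the 31 were 0.475 for IFNg, 0.474 for P3C, 0.498 for LPS_hi and 0.565 for LPS_lo, beside medians over all genes of -0.038, -0.28, -0.143 and -0.199. For IFNa, IFNb and IC the core medians were 0.136, 0.145 and 0.182 (all genes -0.184, -0.097 and -0.124).

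The values are shares of all mapped reads, so other genes' changes move them. Rescaling by the median ratio between samples moved the median of all genes by over 0.1 in 4 comparisons, to -0.02 with IC, -0.167 with P3C, -0.193 with LPS_hi for 4 h and, in mice given LPS, from -0.192 to -0.036. The share of calls that were higher moved from 30.7 to 50.1% for IC, from 18.6 to 30.7% for P3C, from 30 to 43.4% for LPS_hi at 24 h, from 45.3 to 56.3% for IFNb, from 18.9 to 34.5% for LPS_hi at 4 h and from 39.3 to 63.6% in mice. On that scale, 8 core subunits were called higher with IC, 18 with P3C, 24 with LPS_hi and 21 with LPS_lo, and the 14 with IFNg were the same. Psmd8 remained called lower with LPS_lo alone. With the culture plate as a term, the counts of higher core subunits were 16 for IFNg, 14 for P3C, 24 for LPS_hi, 12 for LPS_lo and 7 for IC. The share of all genes called with that term is not reported here. Within plates the mean of the core lay above untreated in each plate for these stimuli (0.314 to 0.591 for IFNg, 0.461 to 0.652 for P3C, 0.228 to 0.634 for LPS_hi).

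**Figure D3:**
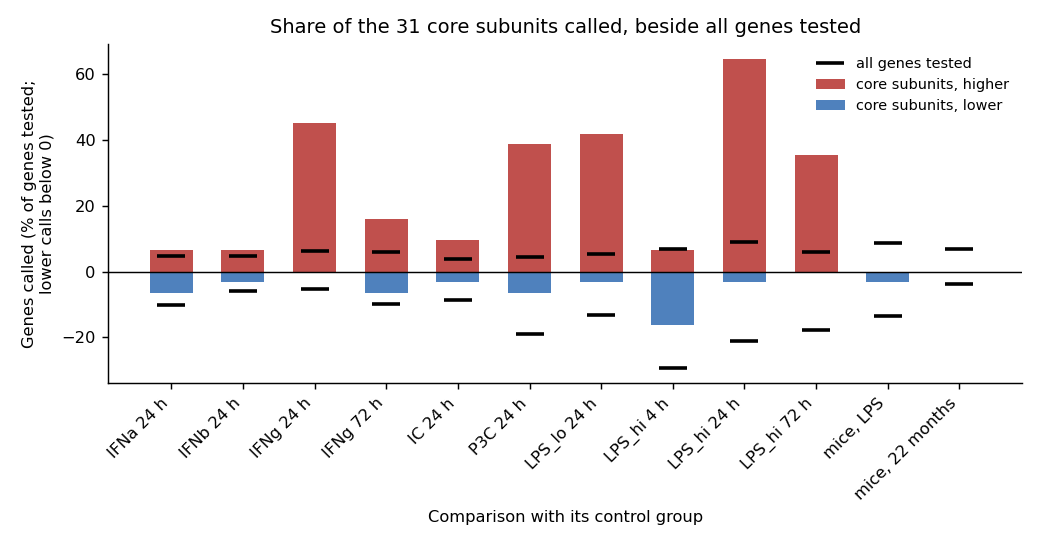
Bars give the share of the 31 core subunits called higher (red, above 0) or lower (blue, below 0) at an adjusted p under 0.05 in limma, by comparison, and black ticks the share of all genes tested. The LPS_hi bar at 24 h stands for 20 of 31 subunits beside 8.97% of genes, and the bars of both comparisons in mice stand at 0 above the axis.

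Of the 7 genes of the alpha ring, 6 were called higher with IFNg, 7 with LPS_hi, 5 with LPS_lo and 2 with P3C. Psma5, an alpha subunit, had 4.29, 22.8 and 39.04 CPM (lowest, median, highest) in untreated cultures and 58.3, 76.7 and 84.5 CPM with IFNg, with no overlap. It rose by 1.75 ± 0.25 with IFNg (adjusted p = 3.85e-10), by 1.54 ± 0.19 with LPS_hi (adjusted p = 9.80e-14) and by 0.97 ± 0.26 with IFNa (adjusted p = 0.00354), and in each plate for all 3. Psma2 rose by 0.90 with IFNg, 0.60 with IFNb, 0.72 with P3C and 0.75 with LPS_hi. Psma1 went from 49.3 ± 11.6 to 109.2 ± 27.9 CPM with IFNg (1.12 ± 0.20, adjusted p = 9.94e-07), a little of which overlapped with the untreated range of 26.5 to 73.2 CPM, and Psma4 rose by 1.10 with IFNg and 0.99 with LPS_hi.

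Psma6 was the alpha subunit that was not called with IFNg. It was called higher with LPS_hi (1.76 ± 0.23, adjusted p = 9.74e-13), LPS_lo (1.47) and P3C (1.26), and stood at 0.16 ± 0.30 with IFNg (adjusted p = 0.867). Levels with LPS_hi were 346.4, 868 and 3840.4 CPM against 66.1, 294.7 and 887 CPM in untreated cultures, so that the groups overlapped and the upper values of the LPS group were widely spread. Its within-plate differences with IFNg ran from -0.998 to 0.857 in 3 plates, and with LPS_hi from 0.473 to 2.414 in 6.

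Among the beta subunits, which line the chamber, Psmb5 had 80.9, 184.3 and 553.1 CPM in untreated cultures. The 6 cultures with P3C had 670.6, 1045.4, 1244.6, 457.5, 381.3 and 378.02 CPM, of which the first 3 came from one plate and the others from a second. These overlapped with the highest untreated cultures over all plates, but the rise of 1.84 ± 0.29 (adjusted p = 8.94e-09) was 1.882 and 2.171 within the plates. LPS_hi raised Psmb5 by 0.52 ± 0.19 (adjusted p = 0.0216; 0.89 with plate as a term), LPS_lo by 0.89 and IC by 0.79 (adjusted p = 0.0182), of which the last fell to 0.53 (adjusted p = 0.233) without the IC culture that stood apart, which had 1078 CPM. With IFNg the 9 cultures lay tightly at 145.6, 148.3 and 182.6 CPM, a difference of -0.15 ± 0.24 (adjusted p = 0.835), although it was called higher, by 0.53, with library pool as a term. Psmb3 rose with P3C by 1.20 ± 0.21 (adjusted p = 8.99e-07).

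The other 2 constitutive catalytic genes were called in other comparisons. Psmb7, which encodes the trypsin-like subunit, was called higher with IFNg (0.92 ± 0.25, adjusted p = 0.0039) and LPS_lo (0.87 ± 0.28, adjusted p = 0.0131), with 129.7 ± 50.6 CPM untreated, 236.5 ± 75.7 with IFNg and 230.3 ± 75.3 with LPS_lo. Psmb6, the caspase-like subunit, lay between -0.12 and 0.26 in the 7 comparisons at 24 h and was called in none. Psmb1 rose with IFNg (0.62 ± 0.19, adjusted p = 0.0113) and was called lower with P3C (-0.60 ± 0.22, adjusted p = 0.0313), a call lost after rescaling (-0.33) and with plate (-0.20) or library pool (0.15) as a term.

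None of the 6 ATPases of the 19S ring was called with IFNa, IFNb, IFNg or IC, whereas P3C and LPS_hi raised 5 each and LPS_lo 2. Psmc1 had 17.4, 36.1 and 88.8 CPM untreated and 79.3, 105.96 and 153.4 CPM with P3C, a rise of 1.49 ± 0.24 (adjusted p = 3.28e-08) that was 1.201 and 1.646 within its 2 plates. With LPS_hi it rose by 0.53 ± 0.16 (adjusted p = 0.00348) and with LPS_lo by 0.90 ± 0.22 (adjusted p = 0.000762), and with IFNg it stood at 0.055 ± 0.20 (adjusted p = 0.948).

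Of the 11 non-ATPase subunits, 5 rose with IFNg (Psmd14, Psmd12, Psmd7, Psmd3, Psmd11), 6 with LPS_hi and 3 each with P3C and LPS_lo. This group held most of the subunits called lower. Psmd8 fell by 0.67 with P3C, 0.46 with LPS_hi and 0.60 with LPS_lo (adjusted p = 0.00221, 0.000795 and 0.00477), of which the first 2 were no longer called after rescaling, at -0.41 and -0.25. Psmd1, the large scaffold subunit of the 19S base, fell by 0.88 with IFNa (104.2 ± 35.5 CPM against 195.7 ± 68.9 CPM, adjusted p = 0.000526) and by 0.68 with IC (adjusted p = 0.0122; -0.44 and not called after rescaling). Psmd6 fell by 0.88 with IFNa (adjusted p = 0.0125; -0.75 and not called after rescaling) and Psmd13 by 0.76 with IFNb (adjusted p = 0.00665).

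**Figure D4:**
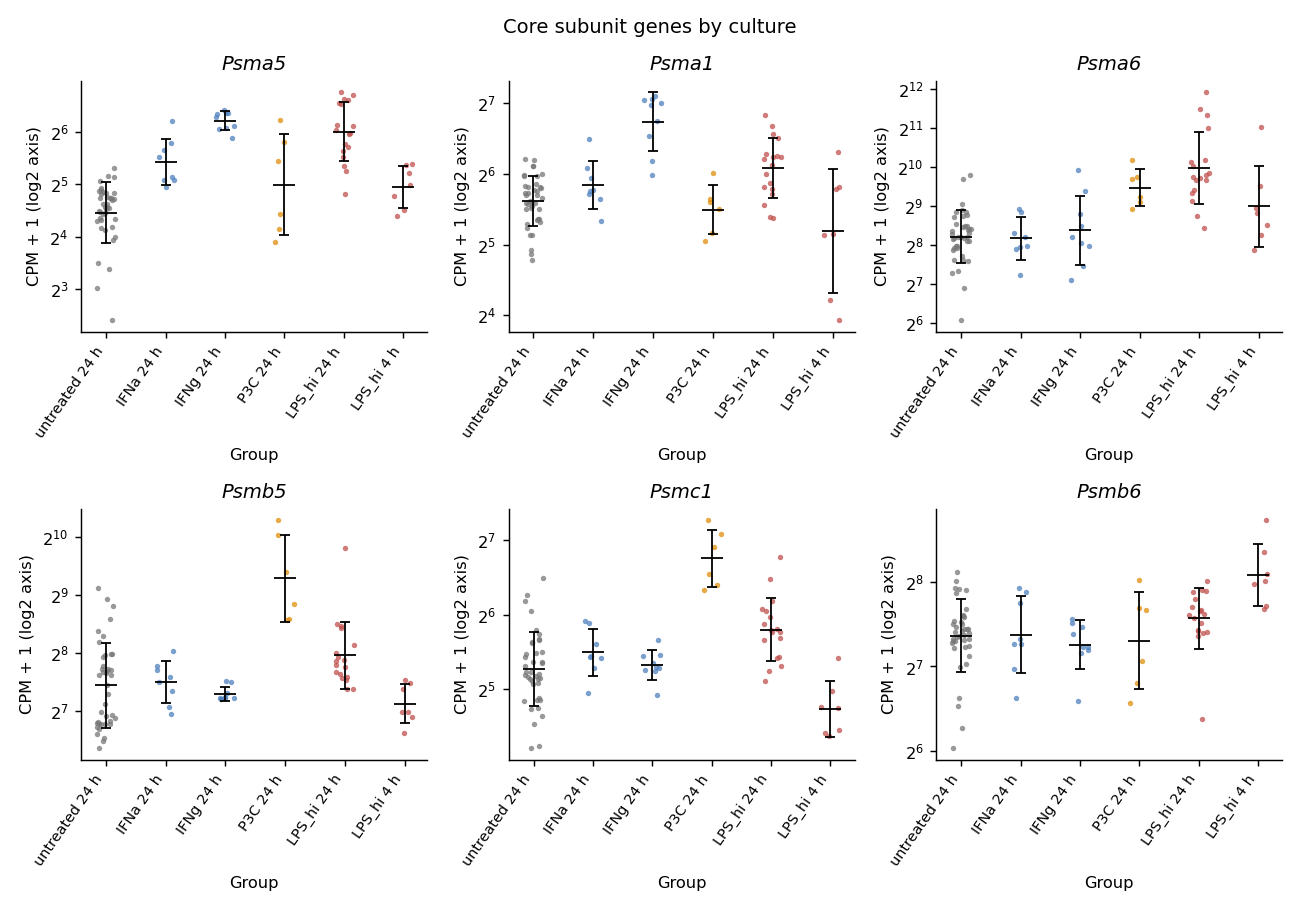
Points give the level of 6 core genes in single cultures (CPM + 1, log2 axis) for untreated cultures and 5 stimuli, with bars for the mean and SD on the log2 scale. Grey points are controls, blue interferons, orange P3C and red LPS. Psma5 and Psma1 are raised with IFNg and Psmb5 and Psmc1 with P3C, while Psmb6 is raised with LPS at 4 h.

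Contrasts between stimuli in the same fit, which had no plate term, tested these patterns. IFNg against P3C and IFNg against LPS_hi were added after the values were seen. Relative to P3C, IFNg gave higher values for 8 core subunits, beside 14.5% of genes, and lower ones for 3, beside 3.45%. The 8 included Psma1 (1.24 ± 0.28), Psma5 (1.22 ± 0.36) and Psmb1 (1.22 ± 0.27), and the 3 were Psmb5 (-1.99 ± 0.34, adjusted p = 4.19e-07), Psmc1 (-1.43 ± 0.29, adjusted p = 2.19e-05) and Psmb3 (-0.94 ± 0.26). For Psmb1, the lower call with P3C was lost after rescaling and with plate or library pool as a term. On the plate that both stimuli shared, Psma5 differed from untreated by 2.025 with IFNg and 0.072 with P3C. On the other P3C plate its difference was 1.374. Between IFNg and LPS_hi, 2 core subunits were higher with IFNg (Psma3, Psma1; 8.02% of genes) and 1 was lower, Psma6 at -1.60 ± 0.33 (adjusted p = 4.06e-05; 3.76% of genes). LPS_hi and P3C differed in 4 subunits in each direction (8.07 and 2.80% of genes): Psmb1, Psmb4, Psma5 and Psma4 were higher with LPS_hi, and Psmb5 (-1.32 ± 0.31), Psmb3, Psmc1 and Psmd6 lower. LPS_hi came from 6 plates and P3C from 2, which LPS_hi shared (1 and 2 cultures). Differences from untreated on those 2 plates were, for Psmb5, 2.076 and 1.468 with LPS_hi and 2.171 and 1.882 with P3C. For Psma5 they were 0.737 and 1.120 against 0.072 and 1.374, so the direction differed by plate. For Psmb3 they were -0.065 and 0.588 against 0.994 and 1.589, and for Psmc1 0.470 and 1.104 against 1.201 and 1.646. Psme1 and Psme2 were higher with LPS_hi than with P3C by 1.32 ± 0.23 and 1.27 ± 0.33 (adjusted p = 5.26e-07 and 0.0025). On the shared plates Psme1 differed from untreated by 1.275 and 1.235 with LPS_hi and by -0.065 and -0.099 with P3C. For Psme2 the differences were 1.183 and 2.663 with LPS_hi and 0.767 and 2.366 with P3C.

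IFNg exceeded IFNa in 7 core subunits (6.42% of genes higher, 2.69% lower), led by Psma7 (1.18 ± 0.27, adjusted p = 0.000526) and Psma1 (0.89 ± 0.26). It exceeded IFNb in 5 (2.99% higher, 1.91% lower), among them Psma5 (1.03 ± 0.31), and fell below neither in any. IFNa shared no plate with IFNg or IFNb, so plate and interferon cannot be told apart in contrasts with IFNa. Within plates, Psma1 differed from untreated by 0.902 to 1.049 with IFNg and by -0.052 to 0.509 with IFNa. Psma5 did so by 1.204 to 2.025 with IFNg and by 0.463 to 1.106 with IFNb. IFNa and IFNb differed in no core subunit in limma (0.266 and 0.484% of genes), and 3 core subunits were higher with IFNa at an unadjusted p under 0.05. Between LPS_hi and LPS_lo none was called (0.289% of genes higher, 0.0472% lower) and 1 was lower at an unadjusted p under 0.05. A p that misses the threshold does not show that the doses act alike: for Psme1 the difference between LPS_hi and LPS_lo was -0.094 ± 0.21 and for Psme2 0.34 ± 0.31.

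At 4 h, LPS_hi had already raised both PA28 genes while core subunits were called in either direction. Psme1 rose by 0.79 ± 0.20 (adjusted p = 0.00046), but the 7 cultures split by plate. They had 291.5, 335.2 and 241.2 CPM on one plate and 681.1, 566.3, 525.2 and 603.2 CPM on the other, and the within-plate differences were 0.068 and 1.283. Psme2 rose by 2.34 ± 0.28 (adjusted p = 3.79e-14), with 90.4 to 165.2 CPM in the 7 cultures, all above the untreated range, and by 1.331 and 2.801 within plates. Of the core, 2 subunits were called higher (6.82% of genes) and 5 lower (29.2%), and the core median of -0.151 stood beside -0.389 over all genes. Psmb6 rose (0.71 ± 0.17, adjusted p = 0.000231), as did Psma6 (0.78 ± 0.33, adjusted p = 0.0499). Psmd12, Psmc2, Psma7, Psmd1 and Psmc1 were called lower by 0.54 to 0.77 in size. None of these 5 remained called lower after rescaling, where 8 core subunits were higher, none was lower and the core median was 0.282. Over all 16942 genes, rescaling moved the calls from 1156 to 1683 higher and from 4951 to 3193 lower. Against the 14 cultures given the chemokines CCL2 or CCL7 for 4 h in place of untreated ones, Psme1 was higher by 0.90 and Psme2 by 1.95, with 1 core subunit called higher and 3 lower. The share of all genes called there is not reported here, so these counts are not read as a result about the core. Against cultures untreated for 24 h, CCL2 for 4 h had 0.0885% of genes called higher and 0.0059% lower. For CCL7 the shares were 0.183 and 0.218%.

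From 4 to 24 h of LPS_hi, 15 core subunits rose and 2 fell (12.9 and 4.62% of genes). The largest rises were in Psma7 (1.39 ± 0.24) and Psmd12 (1.31 ± 0.25), and Psmb6 fell (-0.51 ± 0.18) as did Psmd8. For Psme1 and Psme2 the differences were 0.51 ± 0.21 and 0.14 ± 0.31 (adjusted p = 0.0797 and 0.865). At 72 h, LPS_hi still raised 11 core subunits and lowered none in limma, beside 5.84 and 17.9% of genes called. At an unadjusted p under 0.05 in limma, the core counts were 14 and 0. The core median was 0.353, beside -0.2 over all genes. Psmc1 (1.12 ± 0.19, adjusted p = 8.78e-08), Psmb5 (1.22 ± 0.22, adjusted p = 1.46e-06) and Psmc6 (0.89 ± 0.18, adjusted p = 2.71e-05) led, and Psmb7 was higher by 0.82. The PA28 genes were less raised than at 24 h. Psme1 was up 0.65 ± 0.16 (218.2, 355.1 and 951 CPM against 80.6, 282.6 and 572.3 CPM untreated, which overlapped) and Psme2 1.29 ± 0.24 (adjusted p = 0.000891 and 1.43e-06), and the change from 24 to 72 h was -0.65 ± 0.21 and -1.19 ± 0.31 (adjusted p = 0.0377 and 0.00477). Within the 4 plates of 72 h, Psme1 was above untreated in 3. Of the core, 1 subunit (Psmd8) was higher and 2 (Psma5, Psma2) lower at 72 than at 24 h, each relative to its untreated cultures (2.97 and 3.84% of genes).

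IFNg for 72 h raised Psme1 by 1.79 ± 0.22 (762.5, 899 and 1219.7 CPM, no overlap with untreated) and Psme2 by 2.12 ± 0.32 (14.7, 80.5 and 126.8 CPM, the lowest of the 6 cultures inside the untreated range). Adjusted p were 2.09e-13 and 3.80e-09. It raised 5 core subunits (6.01% of genes) and lowered 2 (9.90%). Psma5 (1.27 ± 0.31), Psma3 (0.70 ± 0.19) and Psmc6 (0.79 ± 0.25) rose with the smallest adjusted p (0.00079, 0.00341 and 0.0134), and Psmd13 and Psmd1 fell by 1.23 and 0.90 (adjusted p = 0.000238 and 0.00314). Between 72 and 24 h of IFNg no core subunit was called in limma (1.46 and 2.79% of genes), and 7 were lower at 72 h at an unadjusted p under 0.05.

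The other 2 activators were rarely called. Psme3, which encodes the nuclear PA28 gamma, was called in none of the 12 main comparisons and spread widely, with 59.7, 346.5 and 1006 CPM in untreated cultures. Psme4, which encodes the activator PA200, was called higher with LPS_hi for 24 h alone (0.74 ± 0.22, adjusted p = 0.00339). Among the chaperones of 19S assembly, Psmd10 rose with IC (1.11 ± 0.32), LPS_hi (1.38 ± 0.23) and LPS_lo (1.12 ± 0.33), with adjusted p of 0.00605, 4.97e-08 and 0.00752. Psmd9 fell by 1.67 at 4 h of LPS_hi and by 0.71 at 24 h (adjusted p = 6.06e-06 and 0.00913; at 24 h -0.52 and not called after rescaling), and Psmd5 by 0.82 at 4 h (-0.42 and not called after rescaling). Of the 20S chaperones, Psmg1 fell by 1.83 with IFNa, 1.61 with LPS_lo and 1.91 with 4 h of LPS_hi, from 13.02 ± 5.43 CPM, a level that rests on few reads in shallow cultures. Psmg2 fell by 1.82 with LPS_hi and 2.25 with IFNg at 72 h, from 70.9 ± 75.5 CPM, a spread larger than its mean. Psmg3, Psmg4, Psma8, Psmb11 and Psmc3ip were called in no main culture comparison.

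Pathway genes outside the rule were read from lists chosen with earlier results of these data known. The 3 immunoproteasome genes were called higher in all of the 9 culture comparisons other than P3C, where none was. With IFNg, Psmb9 rose by 2.83, Psmb10 by 2.24 and Psmb8 by 1.84, and with LPS_hi for 24 h by 1.84, 1.98 and 1.68. Among 8 associated genes, Pomp, which encodes the assembly factor of new 20S particles, rose with IFNg (1.45 at 24 h and 1.03 at 72 h) and LPS_hi (0.78 at 24 h). P3C lowered 2 of the 8, near the 19.1% of all genes it lowered: Psmf1 (-1.31), which encodes a proteasome inhibitor, and Uchl5 (-0.78), a deubiquitinase of the 19S cap. Of 6 regulators, Nfe2l1, whose product is known to drive proteasome genes when proteasomes are impaired, rose with P3C (1.90), IC (0.81) and LPS_hi at 4, 24 and 72 h (1.01, 1.24 and 1.18). Ddi2, the protease known to activate that factor, fell by 2.77 at 4 h of LPS_hi, and Nfe2l2, which drives antioxidant genes, by 1.10 with P3C. In all, P3C raised 1 of the 6 regulators and lowered 4 (4.39 and 19.1% of all genes), LPS_hi at 24 h raised 1 and lowered 2 (8.97 and 21%), and IFNg at 24 h changed none in limma (6.16 and 5.16%). In the list of 11 ubiquitin and shuttle genes, 3 rose and 4 fell with LPS_hi at 24 h (8.97 and 21% of all genes), 3 fell and none rose with P3C (19.1 and 4.39%), and none was called with IFNg. With so few genes in a list, these counts are not read as results about the lists.

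Across all 95 conditions that could be compared with untreated cultures, Psme1 was called higher in 32 and lower in 1, and Psme2 in 35 and 1. Only 1.02% of the genes tested were called higher in as many conditions as Psme1. Conditions that share untreated cultures are not independent, so these counts are a description. Of the 24 conditions with LPS, each gene was higher in 22, and of the 8 with an interferon but no LPS each was higher in 8. Among the 61 conditions without LPS, interferon or IC, Psme1 was higher in none, and Psme2 in 4: P3C at 24 h, P3C at 72 h (1.51), TNFa with P3C at 72 h (1.58) and TNFa at 24 h (1.01). In 46 of these 61 no core subunit was called higher. The share of all genes called higher in those 46 ran from 0.0059% (CCL7 for 24 h) to 12.4% (TNFa for 72 h). Where so few genes of any kind were called, the absence of core subunits is not read as a result about the core. P3C at 24 h was the 1 condition with 5 or more, beside 4.39% of genes. A core subunit was called higher in a median of 6 of the 95 conditions (lowest 1, highest 22, for Psmb5), beside a median of 1 over all genes tested, and lower in a median of 2, the same as over all genes.

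**Figure D5:**
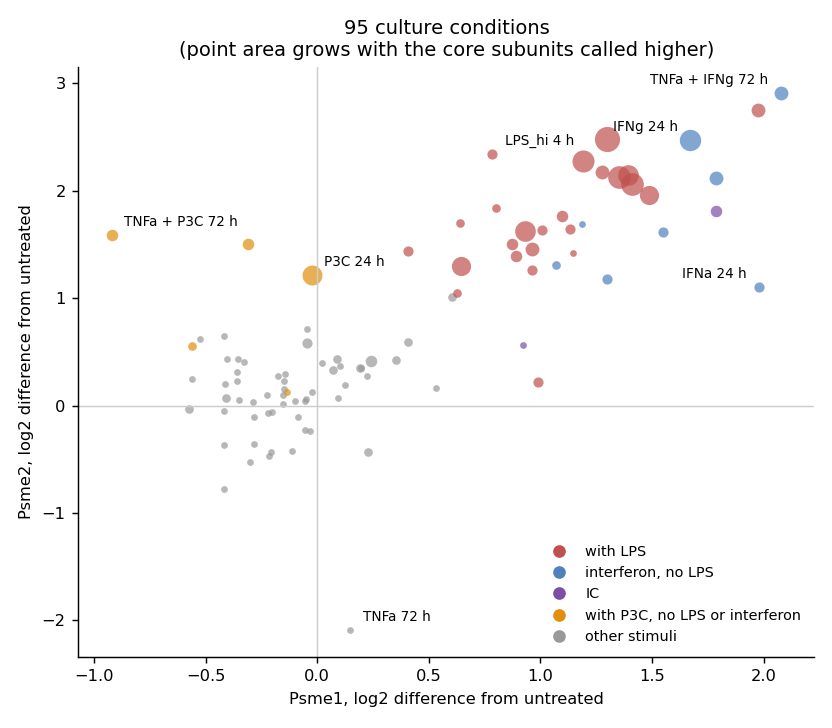
Each point is 1 of 95 culture conditions, placed by the log2 difference of Psme1 (x axis) and Psme2 (y axis) from untreated cultures on the log2(CPM + 1) scale. Point area grows with the number of core subunits called higher, and colour marks LPS, interferon, IC, P3C and other stimuli. Conditions with LPS or interferon lie to the upper right, TNFa with P3C lies at the left with -0.92 for Psme1, and TNFa at 72 h is lowest, with -2.09 for Psme2.

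Outside the main comparisons, the conditions with the most core subunits called higher all held LPS at 24 h: LPS_hi with GABA and LPS_lo with CCL2 (16 each, n = 8 and 7, beside 6.07 and 5.03% of genes), LPS_hi with minocycline, an antibiotic (15, n = 7, 5.91%), LPS_lo with resveratrol (13, n = 8, 4.69%) and LPS_hi with estradiol (11, n = 7, 5.80%). Psma5, Psma6, Psma4, Psmb5, Psmc2, Psmd3 and Psmd11 were called higher in all 5, and Psmd8 was called lower in each. The most called lower were with TNFa for 72 h (10, 17.1%), PGE2, a prostaglandin, for 72 h (7, 3.19%), the neurotransmitter GABA for 72 h (6, 5.56%), and LPS_hi with norepinephrine for 4 h and the mitochondrial toxin MPP for 72 h (4 each, 22.5 and 6.06%). TNFa at 72 h rests on 3 cultures of 1 plate, and leaving out each in turn gave 6 to 11 subunits called lower. Its Psme2 values were 7.98, 0 and 5.22 CPM, a difference of -2.09 (adjusted p = 1.57e-05) that became -1.12 (adjusted p = 0.0976) without the culture at 0.

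Psme1 was highest, relative to untreated cultures, with TNFa and IFNg together for 72 h (2.08), followed by LPS_lo with IFNg for 72 h and IFNa for 24 h (1.98 each). Psme2 was highest with TNFa and IFNg (2.91), LPS_lo and IFNg (2.75) and LPS_hi for 24 h (2.48). The lowest Psme1 was with TNFa and P3C for 72 h, where it fell by 0.92 (adjusted p = 0.000139) while Psme2 rose by 1.58 (adjusted p = 3.32e-06), so that the group means of the PA28 genes moved in opposite directions. The 7 cultures had a lowest, median and highest Psme1 of 17.5, 175.3 and 278.2 CPM. The SD of Psme1 was 1.337 on the log2 scale, and the part of the lowest culture in the fall was not tested. TGFb (-0.57) and palmitic acid (-0.56) at 24 h came next and were not called. After TNFa at 72 h, the lowest Psme2 was with norepinephrine for 4 h (-0.78) and linoleic acid for 24 h (-0.52), neither of which was called.

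For 19 conditions LPS was given with a second agent and could be compared with LPS alone. Psme1 was called in 1 of these, LPS_lo with IFNg for 72 h, where it was higher by 1.01 (adjusted p = 0.00129) and Psme2 by 1.30 (adjusted p = 0.00718) than with LPS_lo alone. With IL10 added to LPS_lo for 72 h (n = 5), Psme2 was lower by 1.23 in size (adjusted p = 0.0437) and 1 core subunit, Psmc5, was lower (2.07% of genes), and without each culture in turn the Psme2 difference ran from -1.53 to -0.79 with adjusted p of up to 0.532. TGFb raised Psmd1 and lowered Psmd8 (1.82 and 1.63% of genes), and the mix of IL4, IL10 and IL13 raised Psmd1 (2.31%). In the other 15 combinations no core subunit, Psme1 or Psme2 was called, minocycline, estradiol, GABA, resveratrol and rapamycin included. Few genes of any kind were called there (0.0177 to 1.36% higher, 0.0177 to 1.16% lower). With resveratrol Psme1 differed by -0.46 ± 0.25 and Psme2 by -0.52 ± 0.36, and with GABA by 0.11 ± 0.20 and -0.42 ± 0.29. With rapamycin the core median was -0.315, beside -0.03 over all genes. A missed threshold does not show that an agent had no effect.

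In mice injected with LPS, few of the constitutive genes were called at 4 h. Of the 43 members tested (Psma8, Psmb11 and Psmg4 were not), none of the 31 core subunits was called higher in limma and 1 was called lower (8.79 and 13.6% of genes; 1 and 5 at an unadjusted p under 0.05), with a core median of -0.067 beside -0.192 over all genes. Psmb1 had 57.9, 58.9, 78.9 and 64.9 CPM in the 4 PBS mice and 38.6, 50.4, 46.1 and 51.99 CPM in the LPS mice, all below the PBS mice, a fall of 0.47 (adjusted p = 0.0457). It was not called without any 1 of the 8 mice, nor after rescaling (-0.31). Psme1 was 261.97, 204.8, 169.4 and 184.2 CPM with PBS and 344.4, 264.9, 213.6 and 264.6 CPM with LPS, with the highest PBS mouse inside the LPS range, and the difference of 0.40 ± 0.17 did not pass (adjusted p = 0.101). It was 0.28 to 0.53 without each mouse in turn, called without the highest PBS mouse (0.53, adjusted p = 0.0430), and 0.57 (adjusted p = 0.0280) after rescaling. Psme2 was 14.2, 12.4, 14.5 and 19.4 CPM with PBS and 13.9, 22.7, 14.8 and 11.2 CPM with LPS, a difference of 0.019 ± 0.23 (adjusted p = 0.962). The immunoproteasome genes were not called either. Psmd9, which had fallen in cultures at 4 h, fell by 0.66 (adjusted p = 0.0354), with each LPS mouse below each PBS mouse, and was -0.50 and not called after rescaling. Pomp (-0.77), Uchl5 (-0.90) and Usp14 (-0.39), a 19S-bound deubiquitinase, were lower and Nfe2l2 (0.81), Nfya (0.54) and Nfyb (1.25) higher. Summed neutrophil markers were 21.4 to 25.96 CPM in PBS and 34.3 to 67.1 CPM in LPS mice, and summed monocyte markers 16.9 to 40.01 and 42.6 to 89.6 CPM. Summed oligodendrocyte markers had a median of 882.5 CPM in PBS and 424.4 CPM in LPS mice, with ranges that overlapped. Medians were 81.8 and 40.6 CPM for neuron markers and 552.5 and 541.5 CPM for astrocyte markers. The part of all these markers in the differences was not tested.

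Both PA28 genes were called higher in old than in young mice. None of the 31 core subunits was called in either direction in limma (6.95% of genes higher, 3.81% lower), 2 had an unadjusted p under 0.05 with a higher and 3 with a lower value, and the core median was 0.004 beside 0.012 over all genes. Psme1 was 112.6, 256.3 and 341.7 CPM (lowest, median, highest) at 2 months and 173.6, 350.8 and 425.7 CPM at 22 months, ranges that overlapped, and was higher at 22 months by 0.47 ± 0.079 with the library batch as a term (adjusted p = 0.000117). Psme2 was 6.93, 11.3 and 17.6 CPM and 8.27, 20.8 and 31.8 CPM, a difference of 0.50 ± 0.15 (adjusted p = 0.0283). Within the first library batch the differences were 0.60 and 0.14 (adjusted p = 0.137 and 0.906) and within the second 0.40 and 0.69 (adjusted p = 0.00285 and 0.0168). Without the batch term they were 0.52 and 0.55 and neither was called (adjusted p = 0.151 and 0.174). Psmb8 and Psmb9 were higher by 0.55 and 0.46. Markers of other leukocytes rose alongside: the summed T cell markers went from a median of 1.76 to 12.5 CPM, monocyte markers from 56.98 to 113.8 and neutrophil markers from 136.5 to 264.2. Medians at 2 and 22 months were 450.1 and 614.95 CPM for oligodendrocyte markers and 328.8 and 303.3 CPM for astrocyte markers. The part of all these markers in the PA28 difference was not tested.

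The 31 core genes varied in how alike their levels were over conditions. Over the mean levels of the 98 culture groups, which share plates and depth, the median Pearson r between pairs of core genes was 0.338, and 71 of the pairs were below 0. It was 0.513 among the alpha subunits, 0.499 among the ATPases, 0.391 among the beta subunits and 0.181 among the non-ATPase subunits. Against the mean of the other core genes, Psmc2 (0.797), Psmb3 (0.785) and Psma5 (0.752) were closest, and Psmd8 (-0.109) and Psmd1 (-0.276) ran the other way. These correlations describe the groups and carry no test.

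Over the same groups the genes most like the mean of the core were Hsp90ab1 (r = 0.840), Psmc2, Psmb3, Vdac3, Psma5, Glrx, Psmd7, Atp1b3, Rps4l and Psmd4 (0.757). Among the genes most like Psme1 were Psmb8 (0.930), Ifi204, Ly6e, Dhx58, Nmi, Samhd1, Ifi205, Pnp and Zbp1 (0.857). Psme2 was most like Cd274 (0.879), followed by Samhd1, Gbp3, Socs1, Ifi47, Cxcl9, Gbp2, Slco3a1, Hcar2 and Casp4 (0.850). Psme1 and Psme2, whose products form 1 complex, had an r of 0.685 with each other, and the mean of the core an r of 0.622 with Psme1 and 0.592 with Psme2.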

How the data were processed

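Primary microglia in culture (784 samples) and microglia isolated from mice (32 samples) were profiled by Quantseq 3′-end RNA sequencing. The authors quantified reads with salmon 0.7.1 on Ensembl 81 transcripts, and the labels name the genome build mm8. The deposited values are CPM (reads of a gene per 1000000 mapped reads, not divided by length), which the methods call TPM, so that levels of different genes are not compared here per length. The values are not whole multiples of a read (a median of 77.6% of values per culture lay within 0.1 of one), so no count test was run. The header of the mouse table calls every mouse a vehicle mouse; groups follow the sample labels.

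Values were tested as log2(CPM + 1) with limma 3.58.1 (R 4.3.3; moderated test with a mean-variance trend, Benjamini-Hochberg adjustment per comparison over all genes, no fold minimum). One fit held all 784 cultures, with 16942 genes above 5 CPM in at least 4 cultures. Mice given LPS or PBS (9012 genes) and mice of 22 or 2 months with library batch as a term (9632 genes) were fitted apart, since the tables were made separately. All 46 genes passed in cultures and 43 in each mouse fit. No pair of samples was identical. Depth ran from 1.00 to 38.2 M reads per culture and 2.36 to 7.78 M per mouse, and a gene of few CPM then rests on few reads in the shallowest libraries. The fits were tested on simulated data. The members and gene lists were chosen with earlier results of these data known. Genes named are the PA28 genes, PA28 gamma and PA200, the catalytic subunits and, per main comparison, up to 3 core genes in each direction with the smallest adjusted p, plus members added where a group or a count is described and chosen after their values were seen. Conditions outside the main ones are named for the 5 highest and lowest counts of core calls and the 3 largest and smallest differences of Psme1 and Psme2, and likeness lists were drawn from the 10 genes with the highest r. Some genes that these rules select are not reported here.

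Alternatives were a pseudocount of 5, no filter, median ratio scaling, culture plate or library pool as a term, fits of 2 groups only, cultures of CCL2 and CCL7 as controls at 4 h, the sum of Psme2 and Psme2b, each library batch alone or no batch term, and leaving out each mouse or culture in small groups. Leaving out the IC culture that stood apart, leaving out cultures of the named conditions of 5 or fewer, and the contrasts of IFNg with P3C and LPS_hi were added after seeing the data. Promoters came from RefSeq (GRCm38.p6), and gene coordinates from GENCODE (GRCm38). Python 3.11.15 with pandas 2.3.3, numpy 2.4.6 and matplotlib 3.10.9 made the summaries and figures.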

Additional observations from a re-analysis of the deposited data

Results flagged for a closer look

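Among the 8 cultures with IC for 24 h, 1 lay far below the others in Psme1, at 8.07 on the log2(CPM + 1) scale (268.3 CPM, against 794.3 to 1249.9 CPM in the other 7). Its Psmb5 was 1078 CPM and its Psma5 13.4 CPM, and its depth was 11.3 M reads. Without it, the difference from untreated cultures was 2.03 for Psme1 (adjusted p = 2.59e-21 in limma) and 2.04 for Psme2 (adjusted p = 1.42e-10), and 2 core subunits, Psma2 and Psma5, were called higher. Among the 6 cultures with IFNg for 72 h, 1 lay far below the others in Psme2, at 3.97 on the same scale (14.7 CPM). In all, 30 combinations of a group and a value were examined in this way and 2 stood apart, and chance sets apart about 1 in 20.

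The effect of LPS_hi relative to untreated cultures was smaller at 72 h than at 24 h for both PA28 genes, by -0.653 for Psme1 and -1.186 for Psme2 (adjusted p = 0.0377 and 0.00477 in limma, 13 cultures at 72 h and 18 at 24 h).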

How the results depend on the processing

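Of the main results recomputed under each alternative, 50 counts moved by over 1.5 times, 4 values changed sign, 4 lost their call and 2 gained one, and the others kept their direction and side of the threshold. The rises of Psme1 and Psme2 with interferons, IC and LPS in cultures did so throughout. Median ratio scaling gave 1 core subunit lower with IFNa, 8 higher and 0 lower with IC, 0 lower with P3C, 0 lower with LPS_hi at 24 h, 21 higher with LPS_lo, 8 higher and 0 lower with LPS_hi at 4 h, 0 lower in LPS mice and 2 lower with age. It turned Psme1 with P3C to 0.24 (adjusted p = 0.538) and Psme1 in LPS mice to 0.57, and left 1 combination with Psme2 called. With plate as a term there were 2 lower with IFNb, 7 higher and 2 lower with IC, 1 lower with P3C, 2 lower with LPS_hi at 24 h, 1 lower with LPS_hi at 72 h and 9 higher with IFNg at 72 h, and Psme1 and Psme2 were each called lower in 2 conditions. With library pool as a term there were 2 lower with IFNb, 1 lower with IFNg, 7 higher with IC, 20 higher and 1 lower with P3C, 2 lower with LPS_hi at 24 h, 5 higher at 4 h, 19 higher at 72 h and 9 higher with IFNg at 72 h. Fits of 2 groups gave 5 higher and 2 lower with IC, 1 lower with P3C, 3 lower with LPS_hi at 24 h, and 3 higher and 0 lower with IFNg at 72 h. For LPS_hi at 4 h, 1 was higher with a pseudocount of 5, 1 higher and 2 lower without the filter, and 1 higher and 3 lower against CCL2 and CCL7. In LPS mice, 0 core subunits were lower without the filter and 0 to 0 without each mouse in turn, where Psme1 ran from 0.28 to 0.53 and Psme2 from -0.17 to 0.15, with -0.0053 and -0.063 among the values below 0. With age, 1 core subunit was lower in the second library batch alone. Psme1 was 0.52 without the batch term and 0.60 in the first batch, and Psme2 0.55 and 0.14, none of them called. For TNFa at 72 h, leaving out each culture gave 6 to 11 subunits lower, Psme1 from -0.032 to 0.39 and Psme2 from -2.71 to -1.12, and for LPS_lo with IL10, Psme2 from -1.53 to -0.79. The cause of these changes was not tested. Core counts in this paragraph stand without the share of all genes called under each alternative, and are not read as results about the core.

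No paired analysis was possible because the labels give no replicate numbers that tie single cultures or mice to each other. Culture plate and library pool, which treated and untreated cultures share, were fitted as terms instead, with the counts above. In the shallowest cultures, of 1.00 M reads, the values of low genes come from few reads and are less precise. Time and stimulus cannot be told apart where cultures of 4 h are compared with those untreated for 24 h. The comparison with CCL2 and CCL7 holds time constant, but those cultures were stimulated too.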
